A study of Zea mays with 57 samples.

Results

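The genes described here are 126 nuclear maize genes whose transcript level was lower in shoots moved to KCl than at the start of the experiment, and close to the start level in shoots moved to nitrogen. They were chosen by their measured levels. Counts were scaled to counts per 1000000 of the library total (CPM), the mean of each group was taken, and log2(mean + 1) at 45, 60, 90 and 120 min was averaged and set against the start. Members had an average difference between -0.4 and 0.4 in nitrogen and of at most -0.8 in KCl (a ratio of 0.574), a mean of at least 5 CPM, and were not among the regulators of the authors' network table. Of the 46335 genes counted, 15194 were nuclear, met the CPM minimum and were no regulators, and 172 of these met the KCl limit with any value in nitrogen.

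The samples were shoots of B73 seedlings, a maize inbred line, at 10 days of age. All groups, controls included, had been without nitrogen for 2 days. The nitrogen groups met fresh medium with 20 mM KNO3 and 20 mM NH4NO3, of which 10% of the nitrogen was the heavy isotope 15N, and the KCl groups met 20 mM KCl, each for 9 times from 5 to 120 min (5, 10, 15, 20 and 30 min, then 45, 60, 90 and 120 min). The start group was taken at 0 min. A time of 2 hours after lights on is recorded for the experiment. Any part of the time of day in differences from the start was not tested. Each of the 19 groups had 3 replicates, and each replicate was a pool of 3 seedlings, so that spreads are between pools. Chloride, ammonium and total salt differed between the media too, so a part of theirs in a difference cannot be told apart.

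Nitrate is both a nutrient and a signal for plants. In Arabidopsis the NIN-like transcription factors respond to nitrate within minutes, and the transcripts of nitrate transporters and of nitrate and nitrite reductase rise. Starved plants adjust many other transcripts, and moving roots to fresh medium is in itself a disturbance, for which the KCl groups serve as the control of the nitrogen groups. The genes below are those that kept their level when nitrogen came with the fresh medium and did not keep it in KCl. Gene names were not paired with these gene IDs in the sources used here, so the members are given by ID and position (AGPv4 coordinates of the count table), without roles.

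Libraries held 1654127 to 4603161 counts in nitrogen, apart from nitrogen 120 min replicate 3 with 8560 counts. The selection and all CPM values leave that library out. KCl libraries held 1057488 to 5684785 counts. Plastid gene models took 0.0287% to 0.292% of the counts in nitrogen libraries and 0.161% to 0.491% in KCl libraries, and the part of this difference in the results below was not tested. A set of 3 libraries had a mitochondrial share under 0.25% of the counts. They were nitrogen 5 min replicate 3 (0.204%, with 0.0735% plastid), nitrogen 20 min replicate 1 (0.093%, with 0.0287% plastid) and KCl 20 min replicate 3 (0.228%). No gap marks this cut, which was set after the data were seen, and nitrogen 120 min replicate 1 came next at 0.259%. The counts below are also given without these 3 libraries. Of the 74 plastid models 4 had counts in each of the 56 libraries over 100000 counts. Such counts cannot tell shoots from other organs, so shoot identity rests on the labels.

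The members were lowered in KCl, and few were lost. Over 45 to 120 min the members' mean level stood at a median of 90.8% of the start level in nitrogen and 51.3% in KCl, with ranges of 74.7% to 150.4% in nitrogen and 13.97% to 60.9% in KCl. In KCl 55 of the 126 members were below 50% of the start, 6 were below 25%, and 0 had a mean under 1 CPM. Most members thus lay close to the limit of the choice. The median difference on the log2 scale was -0.18 in nitrogen and -0.90 in KCl. Since these libraries chose the members, these values describe the choice and carry no test.

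In nitrogen the members' median difference from the start, on the log2(mean CPM + 1) scale, stayed between -0.13 and 0.03 up to 60 min, at -0.13, -0.06, -0.12, 0.03, -0.01, -0.02 and -0.07 for the 7 times from 5 to 60 min. It was -0.16 at 90 min and -0.34 at 120 min. At 120 min 119 of 126 members were below the start in nitrogen, against 52.01% of the 15194 genes the rule could have taken, and 7 were at or below -0.8. Between the mean of 45 and 60 min and 120 min the nitrogen level of 109 members went down, with a median of -0.31 on the log2 scale, against a median of 0.05 for the 15194 genes. A difference of -0.4 or lower was found in 46 members (36.5%) and in 9.83% of those 15194 genes. The 120 min nitrogen group rests on 2 libraries, and the start and the nitrogen libraries of 45 to 120 min chose the members, so these values describe the choice and nothing is read from them.

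In KCl the members lay below the start from the first group on. The members' median stood at -0.55 relative to the start after 5 min of KCl on the same scale, at -0.53 after 10 min, -0.69 after 15 min, -0.97 after 20 min and -0.83 after 30 min. From 45 min on it was -0.997, -0.97, -1.01 and -0.83 at 45, 60, 90 and 120 min. These differences are taken from the start libraries, whose high level helped to choose the members, so a part of the drop from the start comes with the choice at the early times too. The number of members at or below -0.8 in KCl was 26, 31, 44, 85 and 66 of 126 at the 5 early times, against 0.349%, 0.796%, 0.763%, 2.77% and 1.29% of the 15194 genes. At the 4 later times it was 99, 94, 107 and 68, against 1.79%, 1.87%, 1.98% and 1.84%. At 120 min the median was thus nearer to the start than at 90 min, and fewer members were past the limit. Of the 126 members 29 were past it at each of the 4 later times, 62 at 3 times, 31 at 2 times and 4 at 1 time. A set of 14 members stayed past the limit at every KCl time from 5 min on.

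**Figure D1:**
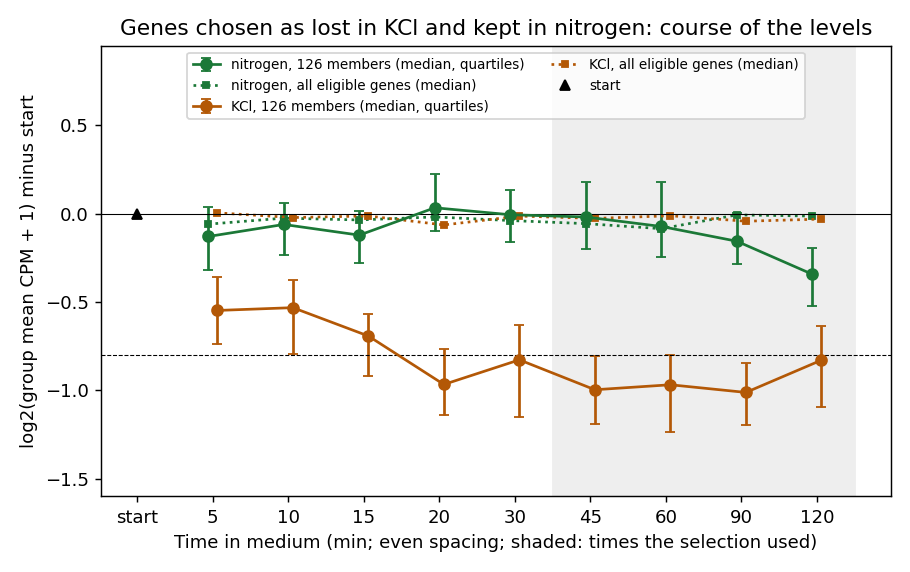
Median and quartiles of the 126 members' difference from the start, log2(group mean CPM + 1), against time in nitrogen (green) and in KCl (brown), with the median of the 15194 genes that could have been chosen as dotted lines. The members' median in KCl lies at -0.55 at 5 min and between -0.83 and -1.01 from 45 min on, and in nitrogen it lies between -0.34 and 0.03; the dashed line is the limit of -0.8, and the shaded times took part in the choice.

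Together the members took 0.510% to 0.75% of the counts of a nitrogen library, with a median of 0.603% over 26 libraries. In KCl they took 0.238% to 0.425%, with a median of 0.336% over 27 libraries. The start libraries gave 0.662%, 0.624% and 0.540%. The ranges of nitrogen and KCl did not overlap in these libraries, part of which chose the members, and the start libraries lay within the nitrogen range. The lowest KCl share belonged to KCl 20 min replicate 3. The share of a library's counts is relative to all other genes, and more counts in other genes lower it too. It can also fall through fewer cells that express these genes or fewer of their transcripts per cell. In shoot pools these cannot be told apart.

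**Figure D2:**
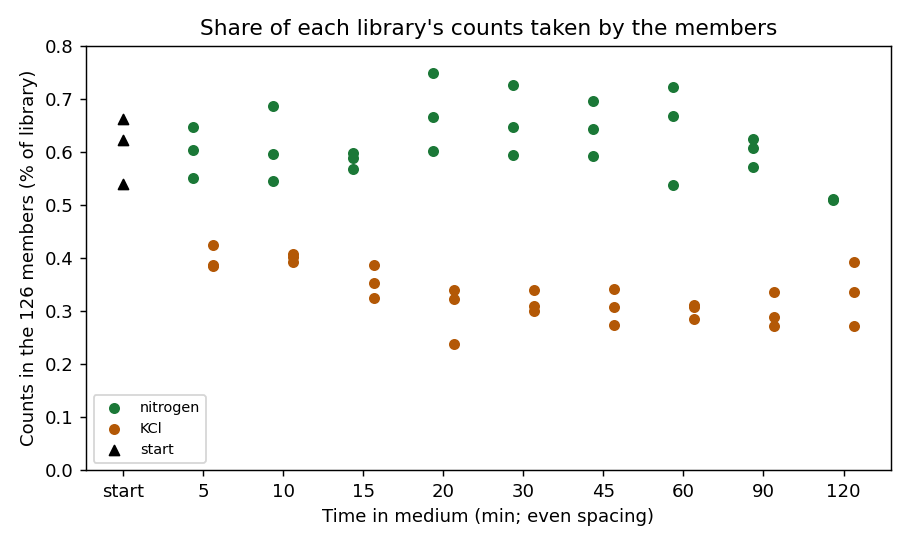
Counts in the 126 members as a percent of each library's total, 1 point per library, against time, with nitrogen in green, KCl in brown and the start as triangles. Nitrogen libraries lie between 0.510% and 0.75% and KCl libraries between 0.238% and 0.425%.

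The libraries of 5 to 30 min entered the choice through the minimum of 5 CPM alone, and no comparison of nitrogen with KCl at these times did, so the difference between the media could be tested there. Over 5 to 30 min 115 of the 126 members were higher in nitrogen than in KCl and 0 were lower, at an adjusted p under 0.05 in edgeR's quasi-likelihood test with Benjamini-Hochberg adjustment over all 18412 genes tested. Among all genes tested 25.8% were called higher in nitrogen and 23.9% lower. The median difference of the members was 0.74 on the log2 scale, with quartiles of 0.53 and 1.06 and a range of -0.26 to 4.66, against 0.02 for all genes tested. It was above 0 in 124 members, above 1 in 35 and above 2 in 9. All 126 members passed the filter on low counts. The minimum of 5 CPM was met by 115 members also without the nitrogen libraries of 5 to 30 min, and 104 of these were called higher, with a median difference of 0.74. The other 11 members met it only with those libraries, which tend to be the high ones in this comparison, and their 11 calls are not counted as support. Over the start and the libraries of 45 to 120 min alone 120 members met the minimum, of which 110 were called. These checks were chosen after the data were seen. With DESeq2 in place of edgeR 108 of the 126 members were called higher, and 113 without the 3 libraries of low mitochondrial share.

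At single times the calls were fewer, and they were most frequent at 20 min. At 5 min 53 of 126 members were called higher in nitrogen (8.32% of all genes tested), with a median difference of 0.53. At 10 min the test called 8 members (0.147% of all genes), with a median of 0.50 on the log2 scale. At 15 min it called 43 (2.8% of all genes), with a median of 0.63. At 20 min 97 were called higher (13.3% of all genes) with a median of 1.102, and 1 was called lower (13.4% of all genes). At 30 min 74 were called higher (6.62% of all genes), with a median of 0.86. The low count at 10 min came with a median near that of 5 min, and few of all genes were called at that time either. The counts at single times include the 11 members that met the CPM minimum only with the nitrogen libraries of 5 to 30 min. They are not given without these members, whose calls are not counted as support.

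Counting over the 5 times, 7 members were called higher in nitrogen at each time, 26 at 4 times, 17 at 3, 26 at 2, 33 at 1 and 17 at 0 times. At 4 or 5 times 33 members were thus called, against 1.1% of all genes tested, and 80.5% of all genes were called at 0 times. The sign of the difference was positive at all 5 times in 104 members, against 23.4% of all genes. Included here too are the 11 members that met the CPM minimum only with the nitrogen libraries of 5 to 30 min. Zm00001d022458, called at each time, is among them, and no support is drawn from their calls. The calls at single times turned on single libraries. At 5 min the count was 18 without nitrogen replicate 3, 30 without KCl replicate 1, 32 without KCl replicate 2 and 33 without KCl replicate 3. At 10 min it was 28 without nitrogen replicate 3, 5 without nitrogen replicate 2 or KCl replicate 1, and 0 without nitrogen replicate 1, KCl replicate 2 or KCl replicate 3. It was 23 at 15 min without nitrogen replicate 3, and at 30 min it was 43 without nitrogen replicate 3 and 44 without KCl replicate 1. At 20 min 65 members were called without KCl replicate 3, the library in which the members were lowest. Without the 3 libraries of low mitochondrial share together the counts were 21, 14, 55, 63 and 86 for the 5 early times in order. The count for the mean over 5 to 30 min ran from 112 to 115 with any 1 of the 30 libraries left out. The share of all genes called in each of these fits is not given, so nothing particular to the members is read from the moved counts.

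**Figure D3:**
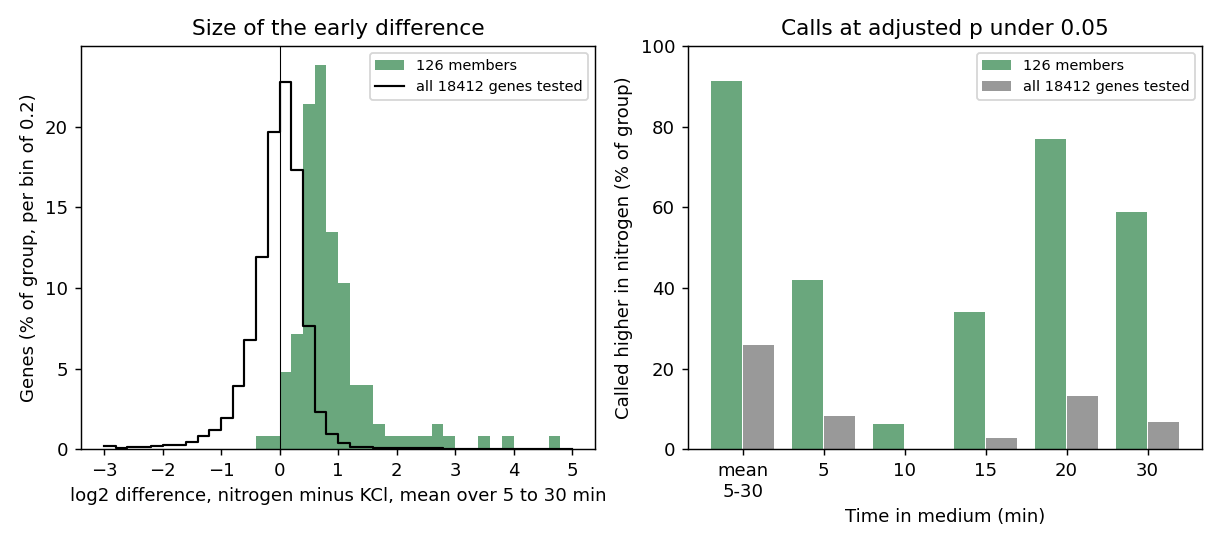
Left, the log2 difference of nitrogen minus KCl averaged over 5 to 30 min, as the percent of genes per bin of 0.2, for the 126 members (green) and the 18412 genes tested (black line; values below -3 are in the first bin). Right, the percent of each called higher in nitrogen for the mean and at each time. For the mean 25.8% of all genes and 115 of the 126 members were called, and at 10 min 0.147% and 8. The 126 include 11 that met the CPM minimum only with the nitrogen libraries of 5 to 30 min, whose calls are not counted as support.

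Within each medium the change from 5 to 30 min did not pass the test in single members. In simulated counts this test recovered 17% of 1.5-fold changes in nitrogen and 19% in KCl. The lack of calls therefore does not show that members stayed unchanged. Nitrogen at 30 min minus nitrogen at 5 min gave 0 called members in edgeR (0.179% of all genes called in either direction), with a median of 0.12 on the log2 scale and 85 of 126 members above 0. At an unadjusted p under 0.05 it gave 8 members higher and 3 lower, against 3.61% and 3.53% of all genes, and DESeq2 called 0. Without nitrogen 5 min replicate 1 it called 1 member. KCl at 30 min minus KCl at 5 min likewise gave 0 called members in edgeR (0.109% of all genes), with a median of -0.33 and 112 members below 0. At an unadjusted p under 0.05 it gave 22 members lower and 0 higher, against 2.32% and 2.93% of all genes, and DESeq2 called 1 member. The difference between these changes, nitrogen minus KCl, gave 0 called members (0.0597% of all genes) in edgeR and 0 in DESeq2, with a median of 0.45 and 24 members at an unadjusted p under 0.05, all higher, against 3.12% of all genes higher and 3.23% lower. This contrast was chosen after the data were seen. Without a filter on low counts the nitrogen change called 6 members (0.493% of all genes in that fit), the KCl change 8 (0.468%) and the difference between them 7 (0.303%).

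The 3 members with the highest CPM were lowered by amounts close to the limit. Zm00001d020910 (chromosome 7, 136264881 to 136266357, plus strand) had the highest mean, 1139 CPM, and its model has 2 exon stretches and an exon length of 1202 bases. Its start libraries held 1433, 1318 and 1075 CPM. At 5 min its libraries held 1536, 1288 and 1864 CPM in nitrogen and 823, 888 and 908 CPM in KCl, and at 10 min 1686, 1567 and 1209 CPM in nitrogen and 836, 711 and 902 CPM in KCl. They held 1403, 1279 and 1375 CPM in nitrogen and 727, 834 and 813 CPM in KCl at 15 min, and 1688, 1257 and 1955 CPM in nitrogen and 645, 824 and 611 CPM in KCl at 20 min. No nitrogen library of these times came down to the highest KCl library. At 30 min the values were 1493, 1351 and 2056 CPM in nitrogen and 636, 628 and 849 CPM in KCl, and at 45 min 1565, 1731 and 1300.2 CPM in nitrogen and 686, 641 and 773 CPM in KCl. They were 1632, 1764 and 1674 CPM in nitrogen and 645, 585 and 779 CPM in KCl at 60 min, and 1405, 1553 and 1701 CPM in nitrogen and 616, 786 and 731 CPM in KCl at 90 min. The last time gave 1277 and 1243 CPM in nitrogen and 565, 609.7 and 1079.7 CPM in KCl. KCl 120 min replicate 3 was the highest of the KCl libraries, at the level of the lowest start library, and all nitrogen libraries exceeded it. Over 5 to 30 min the level averaged 1534 ± 266 CPM in nitrogen and 776 ± 106 CPM in KCl (SD, n = 15 each), a log2 difference of 1.02 (SE 0.0849, adjusted p = 1.70e-13) by edgeR.

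Zm00001d019565 (chromosome 7, 43071903 to 43073370, minus strand) averaged 222.0 CPM. The start gave 256, 222 and 236 CPM. After 5 min it had 318, 309 and 423 CPM in nitrogen and 147, 160.2 and 166 CPM in KCl, and after 10 min 406, 281 and 276 CPM in nitrogen and 151, 138 and 231 CPM in KCl. After 15 min it had 278, 277 and 336 CPM in nitrogen and 148, 169 and 135 CPM in KCl, and after 20 min 392, 235 and 312 CPM in nitrogen and 112, 115 and 155 CPM in KCl. In nitrogen it lay above the start in all libraries of 5 min, and KCl replicate 3 at 10 min reached the lower nitrogen libraries of other times. The 30 min libraries had 298, 228 and 374 CPM in nitrogen and 129, 117 and 127 CPM in KCl, and those of 45 min 295, 372 and 318 CPM in nitrogen and 119, 110.3 and 169 CPM in KCl. Those of 60 min had 300.5, 398 and 244 CPM in nitrogen and 147, 126 and 159 CPM in KCl, and those of 90 min 273, 235 and 274 CPM in nitrogen and 105, 179 and 111 CPM in KCl. At the end it had 269 and 188 CPM in nitrogen and 87.8, 103 and 194 CPM in KCl, where the ranges overlapped. The early log2 difference was 1.14 (SE 0.101, adjusted p = 7.44e-13) by edgeR, from 316 ± 59.5 CPM in nitrogen and 147 ± 29.5 CPM in KCl (SD, n = 15 each).

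Zm00001d013252 (chromosome 5, 7138252 to 7143092, minus strand) sat just inside the limit, with -0.12 in nitrogen and -0.80 in KCl. Its start libraries gave 288, 301 and 248 CPM. It had 259.8, 256 and 208 CPM in nitrogen and 182, 190.3 and 178 CPM in KCl after 5 min, and 286, 266 and 244 CPM in nitrogen and 216, 205 and 192 CPM in KCl after 10 min. It had 245, 279 and 273 CPM in nitrogen and 175, 189 and 159.9 CPM in KCl after 15 min, and 272, 322 and 309 CPM in nitrogen and 176, 163 and 94.2 CPM in KCl after 20 min. At these 4 times each nitrogen library was above each KCl library of the same time, and KCl 20 min replicate 3 was the lowest of all. By 30 min the libraries held 279, 261 and 246 CPM in nitrogen and 161, 169.9 and 156 CPM in KCl, and by 45 min 257, 273 and 290.5 CPM in nitrogen and 185, 154 and 136 CPM in KCl. By 60 min they held 271, 305 and 177 CPM in nitrogen and 176, 155 and 153 CPM in KCl, and by 90 min 280.1, 217 and 254 CPM in nitrogen and 152, 163 and 165 CPM in KCl. By 120 min they held 221 and 283 CPM in nitrogen and 152, 184 and 143 CPM in KCl. The levels in KCl were even over the later times, and nitrogen 60 min replicate 3 came down to the KCl level. The early log2 difference was 0.66 (SE 0.0657, adjusted p = 1.87e-11) by edgeR, with 267 ± 27.6 CPM in nitrogen and 174 ± 27.7 CPM in KCl (SD, n = 15 each). The model overlaps 2 non-coding models on the same strand with means of 0.141 and 0.0485 CPM.

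The other 3 of the 6 members with the highest CPM had early log2 differences of 0.77 (SE 0.0677, adjusted p = 6.63e-13) for Zm00001d039316, 1.703 (SE 0.16, adjusted p = 3.81e-12) for Zm00001d031344 and 0.58 (SE 0.0691, adjusted p = 1.71e-09) for Zm00001d038682 by edgeR. Of these, Zm00001d031344 (chromosome 1, 186836238 to 186837506, minus strand) was also among the 6 with the deepest fall in KCl, at -1.77 relative to the start. Over 5 to 30 min it averaged 278 ± 101 CPM in nitrogen and 88.1 ± 22.1 CPM in KCl (SD, n = 15 each), and its lowest nitrogen library, at 162 CPM, was above its highest KCl library, at 136 CPM. Zm00001d039316 averaged 247 ± 26.5 CPM in nitrogen and 149.7 ± 29.4 CPM in KCl over the same libraries. Zm00001d038682 averaged 240.5 ± 24.7 CPM in nitrogen and 165 ± 26.7 CPM in KCl.

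A few members came near to absence in KCl, and their counts varied from library to library. In a KCl library 0 counts allow a level of up to 0.528 to 2.84 CPM, depending on its total (3 counts of the library, counting error only). Zm00001d041173 (chromosome 3, 102052605 to 102057121, plus strand), a model of 12 exon stretches, stood at -0.26 in nitrogen and -2.89 in KCl relative to the start, the lowest value of all members in KCl. The start libraries held 34.4, 41.5 and 47.3 CPM. After 5 min there were 20.99, 28.5 and 33.9 CPM in nitrogen and 1.93, 8.29 and 10.9 CPM in KCl, and after 10 min 29.8, 9.77 and 12.1 CPM in nitrogen and 0.946, 0.603 and 1.13 CPM in KCl. After 15 min there were 19.02, 60.3 and 35.5 CPM in nitrogen and 0, 0.321 and 3.25 CPM in KCl, and after 20 min 41.7, 5.44 and 58.97 CPM in nitrogen and 0, 3.93 and 0.199 CPM in KCl. All KCl libraries were below all start libraries by 5 min, while nitrogen libraries of 1 time differed by several fold. The 30 min groups gave 53.8, 34.2 and 27.7 CPM in nitrogen and 0.648, 0 and 0 CPM in KCl, and the 45 min groups 44.6, 38.1 and 15.2 CPM in nitrogen and 1.404, 0.563 and 16.99 CPM in KCl. At 60 min the level was 13.3, 44.7 and 5.76 CPM in nitrogen and 5.07, 0 and 0 CPM in KCl, and at 90 min 42.4, 73.3 and 35.4 CPM in nitrogen and 0, 32.1 and 3.24 CPM in KCl. The 120 min groups gave 63.4 and 12.9 CPM in nitrogen and 0, 0.379 and 9.12 CPM in KCl. Later KCl libraries thus held both near 0 and, in KCl 90 min replicate 2, 32.1 CPM. Its early log2 difference, 4.66 (SE 0.515, adjusted p = 2.14e-10) by edgeR, was the largest of all members, with 31.5 ± 16.98 CPM in nitrogen and 2.14 ± 3.29 CPM in KCl (SD, n = 15 each).

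Zm00001d038741 (chromosome 6, 163651425 to 163652698, minus strand) stood at -0.13 in nitrogen and -2.69 in KCl relative to the start, whose libraries held 42.8, 21.2 and 47.7 CPM. At 5 min the level was 41.7, 31.4 and 19.7 CPM in nitrogen and 4.22, 17.03 and 18.8 CPM in KCl, and at 10 min 38.2, 35.9 and 30.8 CPM in nitrogen and 3.78, 6.03 and 10.7 CPM in KCl. At 15 min the level was 29.6, 14.4 and 42.1 CPM in nitrogen and 8.75, 2.25 and 1.63 CPM in KCl, and at 20 min 40.9, 43.5 and 45.4 CPM in nitrogen and 0, 9.99 and 1.79 CPM in KCl. The KCl libraries came down over these times, and the nitrogen libraries stayed at 14.4 CPM or above. At 30 min the level was 24.1, 40.2 and 32.1 CPM in nitrogen and 0, 0 and 0.498 CPM in KCl, and at 45 min 58.6, 29.9 and 29.8 CPM in nitrogen and 0, 0 and 6.37 CPM in KCl. By 60 min there were 37.4, 50.9 and 28.4 CPM in nitrogen and 7.098, 0 and 0 CPM in KCl, and by 90 min 23.8, 28.8 and 31.9 CPM in nitrogen and 0.478, 5.69 and 7.56 CPM in KCl. At 120 min there were 29.8 and 31.2 CPM in nitrogen and 1.03, 16.3 and 42.3 CPM in KCl, so that 1 KCl library was at the start level and 1 near 0. The early log2 difference was 3.47 (SE 0.346, adjusted p = 1.76e-11) by edgeR, with 34.01 ± 9.17 CPM in nitrogen and 5.699 ± 6.14 CPM in KCl (SD, n = 15 each).

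Zm00001d022458 (chromosome 7, 178123617 to 178125871, minus strand) stood at 0.36 in nitrogen and -1.73 in KCl relative to the start, which gave 6.87, 7.16 and 6.004 CPM. Its 5 min libraries had 8.45, 8.75 and 13.3 CPM in nitrogen and 0.352, 1.57 and 2.62 CPM in KCl, and its 10 min libraries 12.7, 3.45 and 9.08 CPM in nitrogen and 0.946, 0 and 0.565 CPM in KCl. Its 15 min libraries had 10.2, 10.5 and 11.1 CPM in nitrogen and 0.921, 0.642 and 0.542 CPM in KCl, and its 20 min libraries 14.9, 9.07 and 20.02 CPM in nitrogen and 0.854, 0.714 and 0.596 CPM in KCl. The lowest nitrogen library of 5 to 30 min, at 3.45 CPM, was above the highest KCl library, at 2.62 CPM. Its 30 min libraries had 7.54, 5.02 and 11.9 CPM in nitrogen and 0, 0.7198 and 0.498 CPM in KCl, and its 45 min libraries 15.5, 22.1 and 5.21 CPM in nitrogen and 1.404, 0 and 1.59 CPM in KCl. Its 60 min libraries had 9.53, 13.7 and 3.96 CPM in nitrogen and 1.01, 2.55 and 0.896 CPM in KCl, and its 90 min libraries 6.06, 13.4 and 8.32 CPM in nitrogen and 0, 5.17 and 1.08 CPM in KCl. The libraries of 120 min had 8.04 and 1.95 CPM in nitrogen and 0, 0.757 and 1.93 CPM in KCl. Over the libraries of 45 to 120 min as a whole the ranges of the media overlapped, and at each of these times they did not. The early log2 difference was 3.97. Its mean was 5.56 CPM over all libraries and 3.796 CPM without the nitrogen libraries of 5 to 30 min, so it met the minimum of 5 CPM only through the libraries that were high, and the difference is given as a description, with no test.

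Zm00001d045392 (chromosome 9, 20480509 to 20481751, plus strand) had 1 start library far above the others. The start gave 4.201, 26.8 and 1.77 CPM in replicates 1 to 3. At 5 min it held 3.27, 2.92 and 4.01 CPM in nitrogen and 0.704, 1.12 and 2.18 CPM in KCl, and at 10 min 4.03, 4.31 and 3.58 CPM in nitrogen and 0, 0.603 and 0.565 CPM in KCl. At 15 min it held 6.34, 0.8496 and 5.83 CPM in nitrogen and 0.461, 1.28 and 4.88 CPM in KCl, and at 20 min 4.79, 10.3 and 15.1 CPM in nitrogen and 0.854, 1.07 and 0.199 CPM in KCl. At 5 and 10 min the nitrogen libraries lay near start replicate 1. At 30 min it held 6.54, 3.19 and 18.9 CPM in nitrogen and 1.62, 2.16 and 0.997 CPM in KCl, and at 45 min 4.53, 11.9 and 33.8 CPM in nitrogen and 0.936, 2.81 and 1.59 CPM in KCl. Later it held 14.1, 53.6 and 3.598 CPM in nitrogen and 5.58, 0.849 and 0.896 CPM in KCl at 60 min, and 10.5, 3.24 and 7.63 CPM in nitrogen and 1.91, 0.517 and 1.62 CPM in KCl at 90 min. The values of 120 min were 2.82 and 7.81 CPM in nitrogen and 1.03, 1.14 and 1.66 CPM in KCl. Its difference of -2.16 in KCl was the third in depth, and it was not among the members that the rule chose without each start library in turn. The difference between the media, which uses no start library, was 2.45 (SE 0.509, adjusted p = 7.74e-05) over 5 to 30 min by edgeR.

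Among the others with the deepest fall or the largest early difference, Zm00001d027500 had 1.94, 12.8 and 22.96 CPM as its lowest, median and highest early level in nitrogen, against 0.324, 1.89 and 4.49 CPM in KCl. Its early log2 difference was 2.62 (SE 0.247, adjusted p = 4.34e-12) by edgeR. Zm00001d003186 had 3.63, 9.05 and 28.5 CPM in nitrogen, against 0.324, 1.41 and 2.88 CPM in KCl, a difference of 2.86. Its ranges in nitrogen and KCl did not overlap at these times, and those of Zm00001d027500 did. Zm00001d052336 had 3.54, 8.67 and 13.03 CPM in nitrogen, against 0, 1.12 and 3.93 CPM in KCl, with overlap, a difference of 2.63. Without the nitrogen libraries of 5 to 30 min the mean was 4.803 CPM for Zm00001d003186 and 3.91 CPM for Zm00001d052336, under the minimum, so both differences are descriptions, with no test. All 3 averaged 5.11 to 7.42 CPM, and their levels in KCl correspond to few counts per library.

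**Figure D4:**
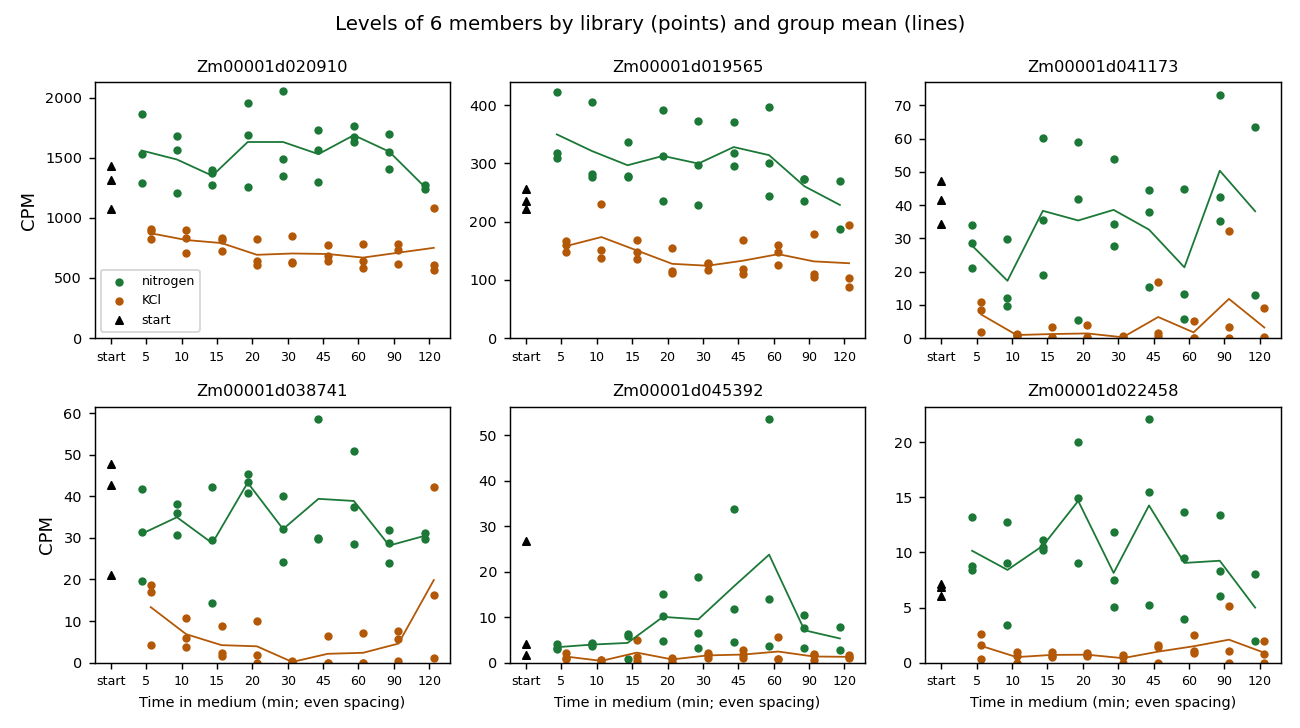
CPM by library (points) and group mean (lines) against time for 6 members, in nitrogen (green) and KCl (brown), with the start libraries as triangles; the level axis starts at 0. In Zm00001d020910 all KCl libraries of 5 to 30 min lie below all nitrogen libraries of these times, as in 0.698% of the 15194 genes. Zm00001d022458 shows the same, but it met the CPM minimum only with those nitrogen libraries. Zm00001d038741 returns to 42.3 CPM in 1 KCl library at 120 min, and Zm00001d045392 has 1 start library at 26.8 CPM.

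Groups of libraries that did not overlap were found in part of the members. Over 5 to 30 min the 15 KCl libraries were all below the 15 nitrogen libraries in 15 members (0.698% of the 15194 genes), among them Zm00001d003186 and Zm00001d022458, which met the CPM minimum only with those nitrogen libraries. Over 45 to 120 min the 12 KCl libraries were all below the 11 nitrogen libraries in 18 members (0.75% of those genes), and below the 3 start libraries in 72 members (4.51%). The later counts describe libraries that chose the members, and nothing is read from them.

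The 11 members without a call over 5 to 30 min had early log2 differences from -0.26 to 0.34. The smallest in size were in Zm00001d026147, with 12.9 CPM as the median of the early libraries in nitrogen and 13.2 CPM in KCl, a difference of 0.08 (SE 0.152, adjusted p = 0.681) by edgeR. Next came Zm00001d022276, a long model of 32 exon stretches, at 10.9 CPM in nitrogen and 10.5 CPM in KCl, a difference of 0.097 (SE 0.137, adjusted p = 0.581). Zm00001d041900 had 5.83 CPM in nitrogen and 4.98 CPM in KCl, a difference of 0.12 (SE 0.191, adjusted p = 0.618). These 3 differences did not pass the test. Over 45 to 120 min the medians of these members, in the same order, were 14.6, 12.97 and 6.69 CPM in nitrogen and 7.02, 8.34 and 4.88 CPM in KCl.

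A single member was called lower in nitrogen at 20 min, and it is named because it was the only one. Zm00001d017077 (chromosome 5, 184494219 to 184496209, minus strand) had 44.5, 24.8 and 17.3 CPM in nitrogen at 20 min and 62.3, 32.5 and 85.6 CPM in KCl, against 35.5, 38.2 and 36.7 CPM at the start. The libraries of both media overlapped. The log2 difference was -1.05 (SE 0.393, adjusted p = 0.0402 by edgeR). The call was lost with scaling to library totals, in limma's test of the authors' quantile-normalized table and with DESeq2. It was also lost without KCl replicate 1 or 3 or nitrogen replicate 2 or 3 of 20 min, and without the 3 libraries of low mitochondrial share. Over 5 to 30 min the difference was -0.26 (SE 0.181, adjusted p = 0.231). Its level in KCl thus exceeded the start at 20 min in 2 of 3 libraries and had a median of 16.5 CPM over 45 to 120 min.

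Members just inside the KCl limit were Zm00001d010062 at -0.801, Zm00001d013252 at -0.801 and Zm00001d023279 at -0.802, and genes just outside were Zm00001d018298 at -0.799, Zm00001d026089 at -0.799 and Zm00001d031651 at -0.796. At the lower limit in nitrogen the nearest members stood at -0.399 and -0.387 and the nearest genes outside at -0.403 and -0.409, and at the upper limit the nearest members stood at 0.36 and 0.38 and the nearest gene outside at 0.405. The limits therefore cut a continuous range. Zm00001d010062 had an early log2 difference of 0.29 (SE 0.112, adjusted p = 0.0299) by edgeR, a call lost in 15 of 42 alternatives. For Zm00001d023279 it was 0.29 (SE 0.142, adjusted p = 0.0928), which did not pass.

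The start libraries weigh on the choice because each difference is taken from their mean. The 126 members had a median deviation from the mean of the 3 start libraries of 0.11 in replicate 1, 0.03 in replicate 2 and -0.14 in replicate 3, on the log2(CPM + 1) scale. Replicate 1 was the highest of the 3 in 68 members, and replicate 3 the lowest in 69. Replicate 3 also had the highest share of plastid counts of the 3, at 0.419%, against 0.176% and 0.194%, and its part in the choice was not tested. Without replicate 1 the rule chose 98 genes, of which 80 were among the 126. Without replicate 2 it chose 127, with 83 of the members, and without replicate 3 it chose 154, with 99 of the members. The number of members chosen in all 3 cases was 50. Of these 50 members 49 were called higher in nitrogen over 5 to 30 min, with a median difference of 0.81. Of the other 76 members 66 were called, with a median of 0.66, and of all genes tested 25.8%. The 50 also lay deeper in KCl, at a median of -1.03 relative to the start against -0.86. This depth comes with the choice, since members further past the limit stay chosen more readily when a start library is left out. Nothing is read from it. Both groups hold members that met the CPM minimum only with the nitrogen libraries of 5 to 30 min. Zm00001d052336 is among the 50 and Zm00001d022458 among the 76, and such calls are not counted as support. This split was made after the data were seen.

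**Figure D5:**
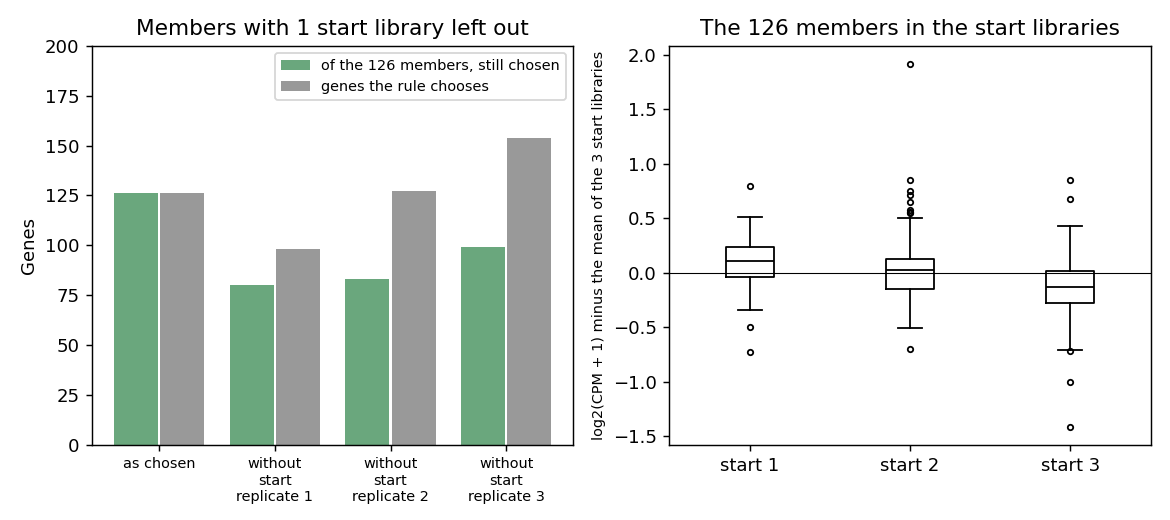
Left, how many genes the rule chose as it stands and with 1 start library left out (grey), and how many of the 126 members were among them (green): 80, 83 and 99 without replicates 1, 2 and 3. Right, each member's level in the 3 start libraries relative to their mean, log2(CPM + 1), as boxes with the median, the quartiles and outlying members as circles; the medians are 0.11, 0.03 and -0.14.

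The gene models of the members were shorter and simpler than those of the other genes, a feature the rule did not use. The median exon length was 1671.5 bases against 2243 bases for the 15194 genes, and the median genomic span 2687 against 4306 bases. A median of 3 exon stretches stood against 5, where overlapping exons of a gene's transcripts count as 1 stretch. In 44 members (34.9%) the model had at most 2 stretches, against 18.7%, and in 13 (10.3%) it had 1, against 5.79%. The members also had fewer counts, with a median mean of 12.6 CPM against 23.6 CPM, and the features were not compared at matched CPM. Reads come from transcript 3' ends, so that CPM was not divided by length. On chromosome 1 there were 27 members (21.4%), against 16% of the 15194 genes, and on chromosome 5 there were 7 (5.56%), against 12.1%. The IDs of 124 members are those of gene models and 2 are non-coding RNA models (1.59%, against 0.513%).

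Few members were neighbours. The nearest pair was Zm00001d038741 and Zm00001d038742 (chromosome 6, 163657410 to 163658979, plus strand), on opposite strands with a gap of 4711 bases and no other model between. Zm00001d038742 averaged 7.83 ± 2.31 CPM in nitrogen and 4.47 ± 1.85 CPM in KCl over 5 to 30 min (SD, n = 15 each), an early log2 difference of 0.84. This too is a description, since its mean was 4.73 CPM without the nitrogen libraries of these times. Its early difference was thus smaller than that of its neighbour, 0.84 against 3.47, and the gap between them was not tested. The next pair, Zm00001d020580 and Zm00001d020584 on chromosome 7, lay 39377 bases apart with 4 models between, and both are single stretches of 456 and 312 bases. Their early differences were 0.55 (SE 0.106, adjusted p = 2.34e-05) and 0.65 (SE 0.111, adjusted p = 3.61e-06). The third pair, Zm00001d027500 and Zm00001d027512 on chromosome 1, was 349767 bases apart, and the fourth, Zm00001d039293 and Zm00001d039316 on chromosome 3, 373424 bases. Early differences were 0.74 (SE 0.0866, adjusted p = 9.56e-10) for Zm00001d027512 and 1.201 (SE 0.146, adjusted p = 2.51e-09) for Zm00001d039293. Within 100000 bases of each other there were 2 pairs.

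In the authors' deposited network table, which scores pairs of a regulator and a target with a weight, 43 of the 126 members (34.1%) were targets, against 15.1% of the 15194 genes. The labels and headers do not say how the authors made this table or whether these libraries entered it, so the share is a description. The highest weight of a member was 15.4, for Zm00001d031344 with the regulator Zm00001d028974, which itself averaged 5.92 CPM and stood at -0.18 in nitrogen and 1.48 in KCl relative to the start. It was followed by ENSRNA049478534 with Zm00001d040362 at a weight of 4.70, Zm00001d039316 with Zm00001d011187 at 4.47, Zm00001d013252 with Zm00001d005692 at 4.29 and Zm00001d027394 with Zm00001d045046 at 3.73. The regulators Zm00001d001858, Zm00001d011187 and Zm00001d038288 each held the highest weight for 7 of the 43 members (16.3%), and for 12.7%, 9.92% and 10.5% of the 2529 targets for which this was counted. A weight shows no direction and no binding.

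Of these targets, Zm00001d027394 (chromosome 1, 4340135 to 4340790, plus strand) averaged 196 ± 36.8 CPM in nitrogen and 125 ± 30.9 CPM in KCl over 5 to 30 min (SD, n = 15 each), a log2 difference of 0.69 (SE 0.0864, adjusted p = 4.40e-09) by edgeR. ENSRNA049478534, a non-coding model of 1 stretch on an unplaced contig, had 1.69, 49.9 and 81.02 CPM as its lowest, median and highest early level in nitrogen, against 1.99, 23.1 and 47.1 CPM in KCl. Its difference of 0.95 (SE 0.302, adjusted p = 0.00771) by edgeR came with libraries that overlapped, and the call was lost in limma's test of the authors' quantile-normalized table (0.71, SE 0.411, adjusted p = 0.15).

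Set beside the members, the genes that met the mirrored rule, raised in KCl and steady in nitrogen, numbered 184. Over 5 to 30 min 155 of them were called lower in nitrogen and 0 higher, with a median log2 difference of -0.85. These genes met the same CPM minimum, and how many met it only with the KCl libraries of 5 to 30 min was not determined. Their calls are therefore not counted as support. Among all genes tested 23.9% were called lower and 25.8% higher. Genes that fell below -0.8 in both media numbered 9, of which 4 were called higher in nitrogen early and 0 lower, with a median of 0.16. Beside the same shares of all genes, nothing is read from so few. The 3 groups cannot overlap by their rules, and they share the start libraries. Across the 126 members the early difference had a Pearson r of -0.82 with the later KCl difference from the start. The Spearman rho was -0.47. These are genes of the same libraries, which are no replicates, and the rule itself cut the later difference at -0.8. Included are also the members that met the CPM minimum only with the nitrogen libraries of 5 to 30 min. No agreement of early and later values is read from these correlations.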

How the data were processed

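RNA was profiled by 3' end sequencing with unique molecular identifiers, per the labels' protocols. The authors deposited whole-number counts per gene; the submitters' processing notes list featureCounts 2.0.1, STAR 2.7.6a, UMI-tools 1.1.1 and fastp 0.21.0. Per the file headers genes were counted by featureCounts 1.5.1, unstranded, on AGPv4 annotation release 37, so overlapping genes cannot be told apart. A quantile-normalized table deposited by the authors (18370 genes, 55 libraries, each summing to 2522105) and the network weights were treated as a score. The count table held 2 columns of no labelled sample, which were not used.

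CPM used library totals, without the library of 8560 counts. Tests ran in R 4.3.3 with edgeR 4.0.16 (TMM, filterByExpr, quasi-likelihood F test, 19 group means over all 57 libraries, 38 residual degrees of freedom), two-sided, with Benjamini-Hochberg adjustment over 18412 genes; the SE was taken as the size of the log2 change over √F. Alternatives used limma 3.58.1 and DESeq2 1.42.0. The fit was tested on simulated data. Intervals and limits from counts cover counting error only. The chi-square per degree of freedom of replicate pairs, over libraries above 100000 counts, was 1.43 to 8.78, above sampling noise.

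The members and lists were chosen with earlier results of these data known. Named members are the 6 with the highest mean CPM, the 6 lowest in KCl, those next to the limit, the 6 with the largest and 3 with the smallest early difference, the 5 with the highest network weight and the 4 nearest pairs. The fixed lists of gene functions could not be counted, since 0 member IDs occur in the reference table of gene names.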

Additional observations from a re-analysis of the deposited data

How the results depend on the processing

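The count for the mean over 5 to 30 min was 115, and it stayed between 108 (DESeq2) and 115 under the alternatives and between 112 and 115 with 1 library left out. At single times the count of members higher in nitrogen moved more. At 5 min it was 53, against 35 with RLE size factors, 32 with library totals, 26 in the authors' quantile-normalized table with limma and 24 with DESeq2, 21 without the 3 libraries of low mitochondrial share (left out together after the data were seen), and 18 to 46 with 1 library left out. At 10 min it was 8, against 35 without a filter on low counts, 4 with DESeq2, 14 without those 3 libraries, and 23 or 24 with a covariate for the first within-group component or for the late difference between the media (the second was chosen after the data were seen), and 0 to 28 with 1 library left out. At 15 min it was 43, against 26 with DESeq2 and 23 to 37 with 1 library left out, at 20 min 65 to 94 (63 without those 3) and at 30 min 43 to 68. The nitrogen change from 5 to 30 min called 6 members without the filter and 0 to 1 with 1 library left out. The KCl change called 8 without the filter, and 1 each with the libraries of 5 to 30 min alone, with limma on the quantile table and with DESeq2. The difference between the changes called 7 without the filter. The rule chose 263 genes without a CPM minimum, 242 in the quantile table, and 93 to 143 with other pseudocounts, scalings or averages; leaving out 1 library gave 98 to 154. The causes were not tested. Shares of all genes called are not set beside the counts of the alternative fits here. A moved count is therefore not read as particular to the members. All these counts include the members that met the CPM minimum only with the nitrogen libraries of 5 to 30 min.

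No sign of pairing by replicate number was found, with correlations of deviations between -0.149 and 0.103 at 5 to 30 min. Pairs of other numbers gave -0.183 to 0.219. With 3 libraries per group this cannot show that the replicates were not paired. With a replicate block the counts were 115 for the mean and 52, 7, 45, 97 and 74 at the 5 times, and 0 for each change from 5 to 30 min. For this fit too the share of all genes is not given. Of 1050 values of named members under alternatives 1030 kept direction and call. The 3 that turned sign were Zm00001d041900, at -0.0104 without those 3 libraries, Zm00001d026147, which ran from -0.0099 (without nitrogen 20 min replicate 1) to 0.136 with 1 library left out, and Zm00001d022276, which ran from -0.00104 (without KCl 20 min replicate 3) to 0.162. Low-count members are limited by depth: at few counts per library single libraries decide a mean.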
